A study of Mus musculus with 4 samples.

Results

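Dividing macrophages were the tumor macrophages with the largest share of their transcripts on 3 proliferation genes, Mki67, Top2a and Ccna2. A macrophage was a cell with at least 500 genes, at most 10% mitochondrial transcripts, at least 1 molecule of Csf1r, at least 0.2% of its molecules on C1qa, C1qb and C1qc, at most 2 molecules over Cd3d, Cd3e and Cd3g and at most 1 over Ncr1 and Klrb1c. Of 28290 cells in 4 single-cell libraries, 14139 met this definition. The 10% of them with the highest share of unique molecular identifiers (UMIs, one per counted transcript) on the 3 genes, pooled over the libraries, were called dividing, which gave 1414 cells and left 12725 other macrophages. The cut fell at 0.185% of UMIs. Members had a median of 0.283% on the 3 genes, and the other macrophages had a median of 0.

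The libraries were of CD45-positive live cells sorted from MC38 colon tumors in C57BL/6 mice that carry human CTLA-4, so that ipilimumab, a human IgG1 against CTLA-4, can bind. Each mouse received 500000 MC38 cells under the skin. Per the deposited records, treatment began at tumors of about 100 mm3, was given 3 times into the peritoneum, and tumors of 11 mice were pooled per group on day 8. The age of the human CTLA-4 mice was not given in the sources used here; the article states an age only for its C57BL/6J and BALB/c mice.

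The isotype control group received human IgG1 at 10 mg/kg, and the combination group received ipilimumab at 10 mg/kg with AT130-2 at 20 mg/kg, an antibody against the mouse inhibitory receptor FcγRII in an Fc-silent mouse IgG1 format. Of the remaining libraries, one was titled anti-human CTLA-4 but carried the treatment field anti-mouse FcgRII, and the other had these the opposite way round. They are called single antibody A and single antibody B in that order, and the labels leave undecided which of the pair was given ipilimumab. The article gives lower doses of ipilimumab and of the FcγRII antibody, fewer pooled tumors, an earlier day and a smaller starting size than the records. All 4 libraries carried the same batch label. With 1 pooled library per group there was no replicate error, so no test between groups was made, and intervals cover counting error only.

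The 4 libraries held 8173, 6390, 6097 and 7630 cells in the order isotype control, single antibody A, single antibody B and combination, which is the order of all sets of 4 values that follow. Their summed UMIs were 178178393, 129151823, 142472286 and 196362818, of which dividing macrophages held 11435479, 10299774, 14146427 and 9112981. Macrophages numbered 3825, 3146, 3985 and 3183, and dividing macrophages 391, 308, 460 and 255. No cell barcode occurred in more than 1 library. The first 16 bases of the barcode, which mark the droplet where the remaining bases mark the library, were shared by 712 to 1148 cells of each pair of libraries, and 31.5% of the dividing against 33.7% of the other macrophages shared them with another cell.

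A dividing cell licenses its origins of replication with the MCM complex, copies its DNA with polymerases fed by nucleotide-making enzymes, and then condenses and separates its chromosomes with cyclin-dependent kinase 1, condensins and the spindle's motors and checkpoints. E2F factors switch on many of the first genes, while the MuvB complexes with B-MYB and FOXM1 switch on the later ones through a promoter element called the cell cycle genes homology region (CHR). Macrophages in tissues can divide locally in response to CSF1, and tumor macrophages are replenished both by monocytes and by such division.

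To show what the genes of this program have in common in sequence, the 160 bases before the transcription start are printed for 5 genes that marked these cells and carried a CHR match and for 1 replication gene with E2F matches. The sequences are from RefSeq for GRCm38.p6, read 5′ to 3′ on the gene's strand. Capitals mark TTTGAA or TTCGAA on either strand in the first 5, and TTTCGCGC or TTTGGCGC on either strand in Mcm5, where 2 matches overlap.
Mki67, chr7:135716380-135716539, minus strand: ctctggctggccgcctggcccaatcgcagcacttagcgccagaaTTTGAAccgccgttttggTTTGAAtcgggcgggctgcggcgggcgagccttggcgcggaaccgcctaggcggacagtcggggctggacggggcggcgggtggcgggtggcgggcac
Cdk1, chr10:69352913-69353072, minus strand: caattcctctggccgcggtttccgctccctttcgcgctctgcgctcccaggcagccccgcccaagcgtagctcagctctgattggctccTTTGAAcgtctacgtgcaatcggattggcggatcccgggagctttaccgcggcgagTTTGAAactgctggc
Cdc20, chr4:118437344-118437503, minus strand: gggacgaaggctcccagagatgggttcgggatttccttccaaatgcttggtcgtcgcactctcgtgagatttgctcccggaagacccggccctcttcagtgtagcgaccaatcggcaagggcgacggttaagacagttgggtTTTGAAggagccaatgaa
Ube2c, chr2:164769769-164769928, plus strand: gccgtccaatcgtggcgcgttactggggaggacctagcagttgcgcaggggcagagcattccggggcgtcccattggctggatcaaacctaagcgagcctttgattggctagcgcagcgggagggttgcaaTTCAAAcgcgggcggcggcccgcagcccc
Kif11, chr19:37376222-37376381, plus strand: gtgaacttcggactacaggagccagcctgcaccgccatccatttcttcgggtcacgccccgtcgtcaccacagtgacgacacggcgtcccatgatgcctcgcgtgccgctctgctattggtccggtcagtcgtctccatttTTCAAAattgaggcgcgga
Mcm5, chr8:75109349-75109508, plus strand: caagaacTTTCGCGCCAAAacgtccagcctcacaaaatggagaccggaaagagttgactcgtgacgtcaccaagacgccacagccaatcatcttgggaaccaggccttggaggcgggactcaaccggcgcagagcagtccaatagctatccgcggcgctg

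The CHR letters were present in the window from 250 bases before to 50 after the start in 23 of 30 G2/M and mitosis list genes with a promoter entry (76.7%). They were present in 5 of 16 genes of G1/S entry and origin licensing, in 2 of 16 of DNA synthesis, and in 1001 of 5897 tested genes with an entry (17.0%). The E2F letters were found in 9 of the 16 licensing genes, 3 of the 16 synthesis genes and 1 of the 30 mitosis genes, against 124 of 5897 tested genes (2.10%). CCAAT, on either strand, was in 22 of the 30 mitosis genes, 12 of the 16 licensing genes, 9 of the 16 synthesis genes and 2520 of 5897 tested genes (42.7%). A gene with several promoter entries counted once. These are matches of letters and not measured binding.

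Csf1r and the C1q genes were part of the definition of a macrophage and made up most of the summed macrophage marker level, so that level describes the choice of cells. Summed over 8 macrophage markers, levels per 1000000 UMIs of the class (CPM, a level within a cell class and not corrected for length) were 19074, 19987, 19192 and 19948 CPM in dividing and 19014, 20686, 19846 and 18340.1 CPM in other macrophages. C1qa, a chain of the complement starter C1q and the most abundant of these markers, stood at 6998, 7386, 7041 and 7530.1 CPM, and Csf1r, the receptor for CSF1, at 1555, 1389, 1555 and 1228 CPM. Ptprc, which encodes the CD45 used for the sort, stood at 471, 443, 498 and 445 CPM. Of the 8 markers, 1 was higher in dividing macrophages in each library and 3 were lower in each, none by 2-fold.

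The definition set upper limits on Cd3d, Cd3e, Cd3g, Ncr1 and Klrb1c, so low sums of T cell and NK markers were largely fixed by it and are given as a description. Over 11 T cell markers the summed level in dividing macrophages was 7.17, 7.28, 2.76 and 7.13 CPM, with Cd2 the most abundant, and Foxp3 at 0. The 8 NK markers summed to 13.6, 2.82, 1.41 and 3.84 CPM, led by Gzma, of whose 70 UMIs in the isotype control 54 lay in 1 cell. The 5 B cell markers summed to 39.2, 22.4, 24.1 and 21.4 CPM, mostly Cd79b.

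The 7 neutrophil markers summed to 99.6, 77.8, 67.6 and 110.2 CPM, mostly Csf3r. The 8 dendritic cell markers summed to 39.1, 18.0, 7.07 and 19.9 CPM. Of these, Clec9a was the most abundant over the libraries, while in the isotype control Ccr7 reached 17.2, 0.194, 0.141 and 0.549 CPM in library order, with 93 of its 197 UMIs in 1 cell. The 11 tumor and stromal markers, led by Col3a1, summed to 10.7, 15.5, 10.5 and 3.95 CPM in dividing and 18.4, 181, 48.9 and 11.4 CPM in other macrophages, so the dividing cells held fewer such transcripts in each library.

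Mast cell, erythroid and platelet markers summed to 1.22, 0.291, 1.34 and 57.5 CPM, with Mcpt4 the most abundant and Hba-a1 at 0. The combination's value came from a single cell. That cell had 80109 UMIs, among them 323 of Mcpt4, 190 of Cpa3, 478 of C1qa and 90 of Csf1r, and it passed the cut at 0.205% of UMIs. Genes that rest on it are named as such where they occur.

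Dividing macrophages held more counted transcripts per cell. Their median UMI count was 28095, 32382, 30158 and 35126, against 16606, 20835, 20074 and 23563 in other macrophages, a ratio of 1.49 to 1.69. The 3 genes together had a median of 81 to 92 UMIs per member, and 98.1% to 99.6% of members had at least 1 UMI of each. Neutrophils, which do not divide in tissue, gave 0 of 186 cells past the cut, which allows a share of up to 1.96% (exact binomial interval), at a median of only 3081 UMIs. The cut was not a gap in the data. The 5 members just inside held 0.1854% to 0.1857% and the 5 cells just outside 0.1850% to 0.1853%, and 1165 macrophages lay within 1.5-fold of the cut, 668 inside and 497 outside. Dividing macrophages are thus the upper end of a range of this share, and whether they form a cluster was not tested. The mitochondrial share of their summed UMIs was 0.965%, 1.05%, 1.10% and 0.677%, against 0.895%, 0.943%, 1.09% and 0.643% in other macrophages, lowest in the combination in both, and its part in the results was not tested.

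The rule genes themselves chose the cells and are given for their level only. Mki67, which encodes the Ki-67 protein coating mitotic chromosomes, stood at 1240.0, 1073, 1251 and 977 CPM. Top2a, the topoisomerase that untangles replicated DNA, stood at 1071, 1073, 1080.1 and 1091 CPM, and Ccna2, the cyclin of S phase and G2, at 653, 620.3, 676 and 598 CPM. The combination library had the lowest Mki67 and Ccna2 and a Top2a level like the others.

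The first comparison asked how large the dividing share of macrophages was under each treatment. It was 10.2% (exact binomial 95% interval 9.28% to 11.2%) in the isotype control, 9.79% (8.77% to 10.9%) in the library of single antibody A, 11.5% (10.6% to 12.6%) for single antibody B and 8.01% (7.09% to 9.01%) in the combination. The combination had the lowest share and its interval overlapped only that of single antibody A. Its ratio was 0.784 (0.674 to 0.911) to the isotype control, 0.818 (0.698 to 0.959) to single antibody A and 0.694 (0.600 to 0.803) to single antibody B. Between single antibody B and the isotype control the ratio was 1.13 (0.994 to 1.28), within counting error, and between single antibody B and single antibody A it was 1.18 (1.03 to 1.35).

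**Figure D1:**
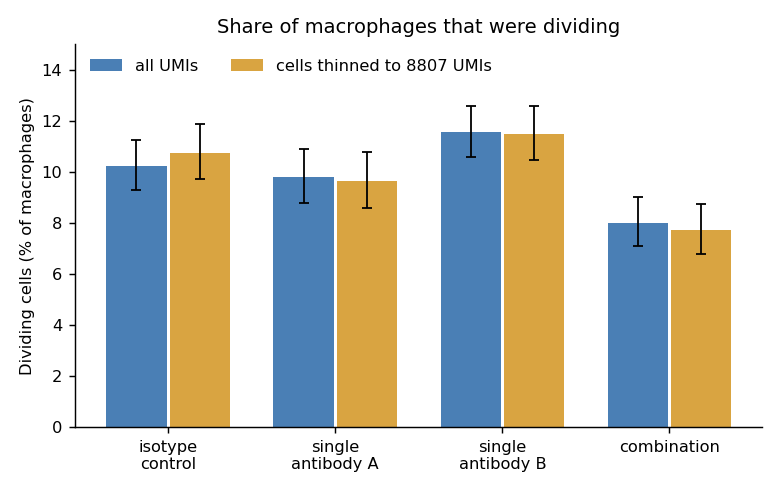
Share of macrophages called dividing in each library (vertical axis, percent; bars, with exact binomial 95% intervals for counting error). Blue bars use all UMIs and yellow bars use cells thinned to 8807 UMIs with shallower cells left out; the combination is lowest on both, at 8.01% and 7.71%.

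Cells differed in depth between libraries, so the share was also taken after thinning each macrophage to 8807 UMIs, which left out 540, 282, 354 and 237 shallower cells. As the mean of 20 random draws it was then 10.7%, 9.64%, 11.5% and 7.71%, in the same order of libraries. The size of the combination's difference depended on where the line was drawn. With the top 5% as dividing the ratio to the isotype control was 0.525, and with the top 20% it was 0.930. With at least 3 rule UMIs in the thinned cells the shares were 22.0%, 21.6%, 22.0% and 20.0%, with overlapping intervals in all 4, and with at least 3 in unthinned cells the direction against the isotype control turned, to a ratio of 1.11. Macrophages were 46.8%, 49.2%, 65.4% and 41.7% of the cells of each library, so that dividing macrophages were 4.78%, 4.82%, 7.54% and 3.34% of all sorted cells. Over the combination and single antibody B these are 255 of 7630 and 460 of 6097 cells.

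Members spread over the cycle from DNA synthesis to mitosis. The S-phase lists (G1/S entry and origin licensing, with DNA synthesis) took a median of 0.358% of a member's UMIs and 0.0678% of another macrophage's, and the G2/M and mitosis list 0.685% and 0.0227%. Split at the members' own medians, 533 members were above for mitosis only, 533 for synthesis only, 174 for both and 174 for neither. Such a split makes the first 2 groups equal and the last 2 equal, so only 533 against 174 is informative. High values of the 2 scores thus mostly lay in different cells. The share of members that were high for mitosis only was 38.9%, 36.7%, 36.1% and 40.0% by library. The share high for synthesis only was 36.1%, 41.6%, 36.5% and 37.6%, and the share high for both was 12.3%, 10.4%, 15.7% and 8.63%, highest in single antibody B and lowest in the combination.

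**Figure D2:**
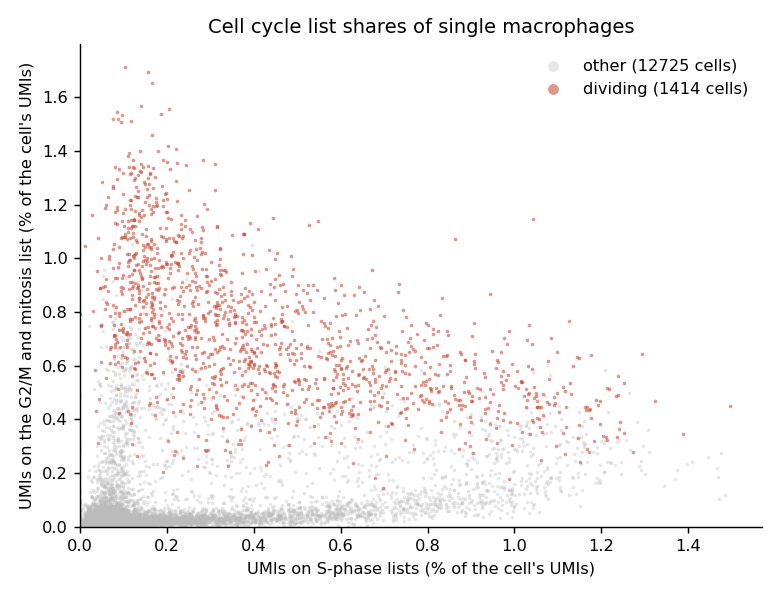
Each point is 1 macrophage, with its UMIs on the S-phase lists (horizontal axis, percent) and on the G2/M and mitosis list (vertical axis, percent); red points are the 1414 dividing and grey points the 12725 other macrophages. Members run along an arc from high synthesis to high mitosis, and a grey arm of 1367 other macrophages with a high synthesis share extends along the horizontal axis.

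Of the other macrophages, 1367 exceeded the members' median synthesis share of 0.358%, while only 62 exceeded their median mitosis share of 0.685%. Macrophages with high replication genes were thus about as many outside the cut as there were members in all. These synthesis-high cells numbered 365, 343, 379 and 280, and had a median of 0.0270% to 0.0482% of UMIs on the rule genes.

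Of 7285 genes that reached 20 CPM in 1 of the 2 classes in each library, the rule genes left out, 398 (5.46%) were at least 2-fold higher in dividing than in other macrophages in each of the 4 libraries, and 28 (0.384%) at least 2-fold lower. The rule used this contrast, so these counts are a description. Cell cycle lists supplied 67 of the higher genes, from 82 tested of 86 measured, and 328 lay outside every list used here. The median ratio over all tested genes was 1.02, 1.02, 1.02 and 1.07.

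Mitosis genes had the largest ratios. The G2/M and mitosis list summed to 7476, 7001, 7594 and 7298 CPM in dividing and 628, 659.6, 594 and 674 CPM in other macrophages, 10.6- to 12.8-fold higher, with 35 of 36 measured genes past 2-fold in all libraries. The size depended on the cut, at 7.32- to 8.56-fold with the top 5% as dividing and 18.3- to 21.4-fold with the top 20%. Cdk1, the kinase that drives entry into mitosis, stood at 553, 509.9, 581 and 518 CPM in dividing and 45.4, 49.4, 46.6 and 46.4 CPM in other macrophages. Plk1, a kinase of spindle assembly and mitotic exit, stood at 289, 256, 285 and 294 CPM against 13.4, 13.8, 11.8 and 16.1 CPM.

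Ube2c, the ubiquitin-conjugating enzyme of the anaphase-promoting complex, stood at 531, 496, 524 and 538 CPM against 24.2, 25.8, 22.2 and 27.0 CPM. The 2 classes did not overlap over the libraries for Cdk1, Plk1 or Ube2c. The rule used this contrast and the share of all tested genes without overlap was not taken, so nothing is read from it. Nusap1 and Kif11, which build and slide spindle microtubules, were 21.6- to 28.5-fold and 17.8- to 24.3-fold higher. The checkpoint kinase gene Bub1 was 9.90- to 11.7-fold higher, and Cdc20, which triggers anaphase, 11.9- to 14.7-fold. Foxm1 and Mybl2, which encode the factors that switch this list on, were 13.2- to 17.9-fold and 3.48- to 4.40-fold higher. The exception was Pttg1, the securin that holds sister chromatids together, at 0.861 to 0.975 times.

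Chromatin and cytoskeleton genes of dividing cells came next. They summed to 6497, 6189, 6582 and 5935 CPM against 1342, 1374, 1311 and 1239.7 CPM, 4.51- to 5.02-fold higher, and 11 of 12 measured genes passed 2-fold. Stmn1, a microtubule destabiliser, stood at 893, 817, 935 and 823 CPM against 114, 122, 117 and 116 CPM. The condensin genes Ncapg and Smc2 were 10.7- to 14.0-fold and 6.83- to 8.06-fold higher, and the histone gene H2afx 9.39- to 12.3-fold. Hmgb1, at 1.70- to 2.10-fold, passed in 1 library only.

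DNA synthesis genes were higher by less. They summed to 2545, 2623, 2877 and 2365 CPM against 870.1, 924, 872 and 844 CPM, 2.80- to 3.30-fold higher, and 13 of 17 tested genes passed. Against the other macrophages without the synthesis-high cells the sum was 5.17- to 6.26-fold higher, near the chromatin list at 5.83- to 6.28-fold. With the top 20% as dividing it was 4.30- to 4.82-fold higher. Rrm2, the limiting subunit of the reductase that makes deoxynucleotides, stood at 269.8, 304, 339 and 268 CPM against 43.4, 53.1, 42.7 and 52.6 CPM. Tk1, thymidine kinase, and Tyms, thymidylate synthase, were 5.62- to 6.88-fold and 4.59- to 5.81-fold higher. Pcna, the polymerase clamp, was 1.69- to 2.07-fold higher and so passed in 1 library of 4.

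Origin licensing genes differed least among the cell cycle lists. They summed to 1641, 1696, 1818 and 1463 CPM against 887, 921, 903 and 772 CPM, 1.84- to 2.01-fold higher, and 8 of 17 tested genes passed. The other macrophages include the 1367 synthesis-high cells, and against those left without them the sum was 3.73- to 4.24-fold higher. With the top 20% as dividing it was 3.01- to 3.55-fold higher. Mcm7 passed at 2.44- to 2.66-fold, whereas Mcm2, Mcm3, Mcm4 and Mcm6, other subunits of the same helicase, lay between 1.25 and 1.67. Mcm5, whose E2F letters are shown above, was 1.80- to 2.13-fold higher. E2f8, a repressor that closes the E2F program, was 5.25- to 7.30-fold higher, while E2f1 stood at 0.932 to 0.989 times. The genes of the rule themselves peak in the later part of the cycle.

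**Figure D3:**
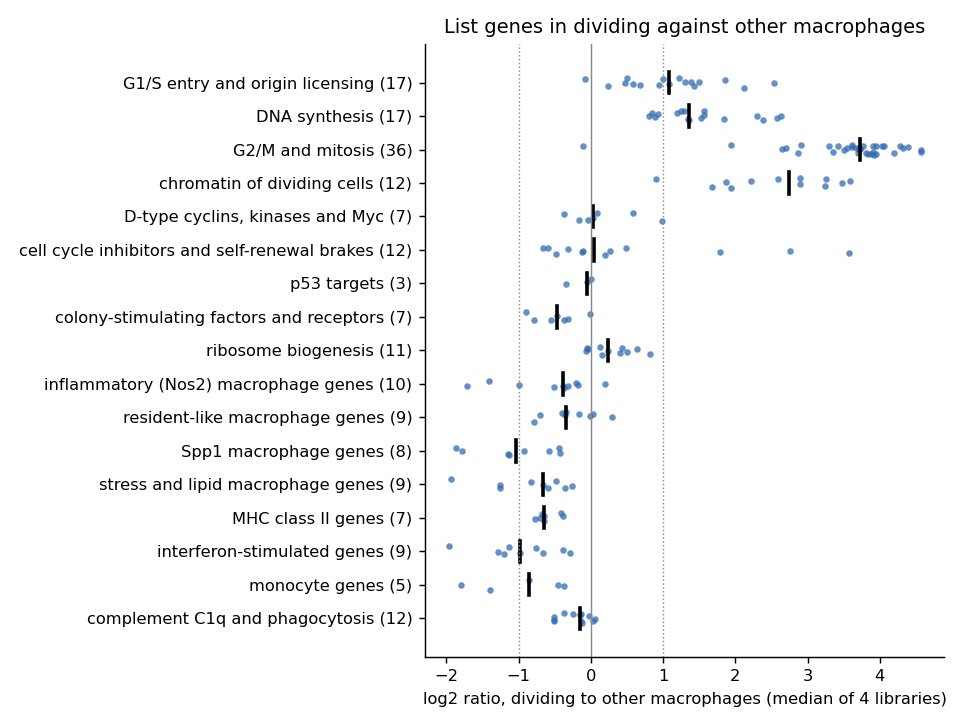
Each point is 1 tested gene of a list, at its log2 ratio of dividing to other macrophages (horizontal axis, median of 4 libraries); black bars are list medians, the solid line marks equal levels and dotted lines 2-fold. Mitosis genes lie mostly between 3 and 5, replication genes from about 0 to 3, and most genes of the macrophage state lists left of 0.

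The regulators upstream of the cycle, as summed lists, differed less between the classes than the cell cycle lists did. None of 7 tested genes for D-type cyclins, their kinases and Myc passed 2-fold in all libraries. Over all tested genes 5.46% were higher and 0.384% lower, so nothing is read from this count. The other macrophages include the synthesis-high cells, whose level of this list is given below. Ccnd1, the cyclin that growth factors induce, stood at 187, 243, 186 and 272 CPM against 247, 309.5, 249.7 and 255 CPM, lower in 3 libraries and not in the combination. Cdk2 and Cdk4, the kinases of G1, were 1.92- to 2.09-fold and 1.41- to 1.54-fold higher, and Myc, a driver of growth, stood at 0.945 to 1.25 times. Among 12 tested cell cycle inhibitors and self-renewal brakes, 3 passed upward. Cdkn2c, the INK4 inhibitor p18, stood at 329.6, 292, 333 and 314 CPM against 26.3, 27.7, 25.8 and 27.8 CPM, a ratio like that of the mitosis genes. Cdkn2d, the INK4 inhibitor p19, was 6.12- to 7.19-fold higher and Rbl1, the pocket protein p107, 3.35- to 3.72-fold. Cdkn1a, the inhibitor p21, was level at 0.853 to 1.05 times.

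Klf2 and Klf4, transcription factors of the mature macrophage, were lower without passing 2-fold. Klf2 stood at 180.3, 108, 221 and 131 CPM against 257, 179, 352 and 173 CPM, 0.603 to 0.758 times the level of the others. Klf4 stood at 40.5, 25.7, 37.4 and 28.5 CPM against 73.7, 36.2, 68.2 and 39.0 CPM, lower in each library. Maf, a further transcription factor of macrophages, was at 0.818 to 1.03 times. None of the 3 tested p53 targets passed, which is not read beside 5.46% higher and 0.384% lower over all tested genes. Mdm2, the p53 ligase, was at 0.628 to 0.933 times and Bax, a cell death effector, at 0.955 to 1.000 times.

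Colony-stimulating factors and their receptors gave no 2-fold difference in 7 tested genes, beside 5.46% of all tested genes higher and 0.384% lower. Nothing is read from this count. How many of all tested genes were lower in all 4 libraries was not counted. Of the 7 genes, 6 were. Csf1r, the exception, was close in the classes at 0.964 to 1.05 times. The receptor chains for GM-CSF were somewhat lower, Csf2ra at 0.791 to 0.842 times and Csf2rb at 0.608 to 0.847 times, and transcripts of the ligands Csf1, Il34, Csf2 and Csf3 were under the 20 CPM minimum. Of 11 tested ribosome biogenesis genes none passed, a count from which, beside the same shares, nothing is read. The sum of this list was 1.18- to 1.33-fold higher. Nop58, a core protein of the snoRNP that methylates ribosomal RNA, had the highest ratio, 1.61- to 2.13-fold.

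Outside the lists, the 10 largest ratios, ranked by the least extreme of the 4 libraries, were Fam83d, Depdc1b, Mxd3, Sapcd2, Pif1, Hist1h3c, Kif18b, Ankle1, Depdc1a and Kif14. Fam83d, which takes casein kinase to the spindle, stood at 32.2, 25.8, 29.9 and 34.3 CPM against 0.802, 1.05, 0.724 and 1.01 CPM. Hist1h3c, a replication-dependent histone H3 gene, stood at 145, 158, 176 and 128 CPM against 6.24, 8.80, 7.64 and 7.58 CPM. Kif18b and Kif14, mitotic kinesins, were 16.5- to 21.9-fold and 15.5- to 20.9-fold higher, Mxd3, a MAX partner of the MYC network, 19.8- to 32.3-fold, and the DNA helicase gene Pif1 18.8- to 32.3-fold. Depdc1b, Sapcd2, Ankle1 and Depdc1a lay between 15.9- and 31.0-fold. Histone H3 genes are near copies of each other, so Hist1h3c is uncertain as a single gene.

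Among the 10 smallest ratios outside the lists were those of Tcp11l2, Kdm5b, Slfn5, F10, Tnfrsf9, Aldoc, Il18bp, Slfn4 and Ifi205. Tcp11l2 stood at 6.38, 6.12, 5.80 and 6.15 CPM against 55.7, 45.1, 53.1 and 32.4 CPM. Kdm5b, a demethylase of histone H3 lysine 4, stood at 8.39, 6.80, 4.74 and 7.24 CPM against 38.3, 35.3, 37.4 and 39.6 CPM. The 2 classes did not overlap for either gene, but both were picked for their small ratios, so nothing is read from it. Slfn5, Slfn4 and Ifi205 are induced by interferon and were at 0.227 to 0.287 times, 0.373 to 0.441 times and 0.370 to 0.452 times the level of the others. Tnfrsf9, the costimulatory receptor 4-1BB, was at 0.199 to 0.342 times, Il18bp, the decoy for interleukin 18, at 0.345 to 0.428 times, F10, coagulation factor X, at 0.239 to 0.319 times and Aldoc, a glycolytic aldolase, at 0.333 to 0.359 times.

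The second comparison was of the macrophage states that the dividing cells held. Over 8 state lists, 69 of 81 measured genes were tested, 9 were at least 2-fold lower in all libraries and none was 2-fold higher in all. The choice of cells used this contrast, so the count is given beside the 0.384% of all tested genes and nothing is read from it. The MHC class II, interferon-stimulated and Spp1 macrophage lists were lower for every tested gene in every library.

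MHC class II genes, which present antigen to CD4 T cells, summed to 15148, 20686, 9071 and 19236 CPM in dividing and 25659, 29704, 13997 and 32454 CPM in other macrophages, 0.590 to 0.696 times the level. Cd74, the invariant chain, stood at 6835, 9471, 4217 and 9549 CPM against 11669, 13677, 6466 and 15420.0 CPM. H2-Ab1 stood at 2335, 3215, 1416 and 2888 CPM against 3985, 4637, 2146 and 5259.9 CPM, and Ciita, the master activator of these genes, at 103, 119, 52.2 and 112 CPM against 174, 179, 89.5 and 175 CPM. All 7 genes were lower in all 4 libraries, none as far as 2-fold. Their depth differed as given above, and among cells between the quartiles of the members' UMI counts, a depth window chosen after seeing the data, the sum was 0.664 to 0.841 times that of other macrophages of the same range.

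Interferon-stimulated genes summed to 679, 867, 589.8 and 919.9 CPM against 1257, 1657, 1073 and 1521 CPM, 0.524 to 0.605 times the level. Isg15, a ubiquitin-like modifier, stood at 137, 192, 133 and 255 CPM against 251, 337, 193 and 361 CPM. Rsad2, the antiviral enzyme viperin, stood at 77.0, 61.8, 30.0 and 55.1 CPM against 158, 246, 153 and 213 CPM and was the only one of 9 tested genes past 2-fold in all libraries. Up to 39.4% of the dividing cells' Rsad2 UMIs in a library lay in 1 cell. Ifit1, Ifit2 and Ifit3, which bind viral RNA, were at 0.357 to 0.536 times, 0.436 to 0.502 times and 0.385 to 0.625 times. In the same depth window the summed list was at 0.469 to 0.634 times.

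Genes of Spp1 macrophages summed to 1640.1, 1792, 1959 and 1985 CPM against 3077, 3138, 3433 and 3973 CPM, 0.500 to 0.571 times the level. Spp1, osteopontin, stood at 701, 558, 1051 and 678 CPM against 1027, 846, 1649 and 815 CPM, lower in each library without passing 2-fold. The 4 genes that passed were Vegfa, a driver of vessel growth, at 0.346 to 0.497 times, Thbs1, thrombospondin 1, at 0.235 to 0.299 times, and the matrix metalloproteinase genes Mmp12 and Mmp13 at 0.330 to 0.467 times and 0.162 to 0.397 times.

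Inflammatory genes of Nos2 macrophages summed to 2141, 3722, 2061 and 5478 CPM against 3203, 4665, 2559 and 8389.6 CPM, 0.653 to 0.805 times the level. Nos2, the inducible nitric oxide synthase, stood at 27.7, 109.8, 32.7 and 257 CPM in dividing and 106, 232, 66.6 and 936 CPM in other macrophages, and 66, 111, 74 and 134 members held at least 1 UMI of it. Ccl5, a T cell chemokine, stood at 121, 148, 69.5 and 279 CPM against 324, 531, 209.8 and 1535 CPM. Nos2 and Ccl5 were the 2 of 10 tested genes past 2-fold. Cxcl10, a ligand of the T cell receptor CXCR3, was the exception of the list at 246, 446, 295 and 876 CPM against 274, 404, 247 and 616 CPM, higher in 3 libraries. Its partner Cxcl9 was at 0.679 to 0.978 times and the cytokine gene Il1b at 0.470 to 0.519 times.

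Stress and lipid genes summed to 0.627 to 0.740 times the level of other macrophages. Gpnmb, a glycoprotein of lipid-laden macrophages, passed at 16.6, 25.9, 14.3 and 30.0 CPM against 66.6, 84.1, 77.8 and 109 CPM. Hmox1, heme oxygenase, was at 0.319 to 0.668 times, Fabp5, a fatty acid carrier, at 0.271 to 0.598 times and Apoe, apolipoprotein E, at 0.664 to 0.810 times. Monocyte genes summed to 0.528 to 0.710 times the level. Plac8, high in blood monocytes, stood at 103, 62.9, 23.2 and 113 CPM against 365, 215, 98.8 and 282 CPM and passed in all libraries, while Ccr2, the receptor that brings monocytes into tissue, was at 0.728 to 0.829 times. Chil3 was lower in 3 libraries and higher with single antibody A, where 1281 of its 1895 UMIs lay in 1 cell.

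Resident-like genes summed to 3648, 3500.3, 3698 and 2301 CPM against 3819.7, 4021, 4087 and 2096 CPM, with none of 9 tested genes past 2-fold. Fcrls, an Fc receptor-like gene of tissue macrophages, stood at 1279, 924, 1479 and 442 CPM against 1027, 823, 1219 and 263 CPM and was higher in each library. Folr2, a folate receptor, was at 0.592 to 0.913 times and Mrc1, the mannose receptor, at 0.967 to 1.24 times. The summed C1q and phagocytosis list was at 0.926 to 1.02 times, while 7 of its 12 genes were lower in dividing macrophages in all 4 libraries and 1 was higher, with a median gene ratio of 0.904. In the depth window the resident-like list was at 0.722 to 0.927 times, lower in all 4 libraries where the combination was otherwise higher, and the C1q and phagocytosis list at 0.856 to 0.977 times.

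Fcγ receptors, which bind the constant part of IgG, lie in that list. Fcgr2b, the inhibitory receptor against which AT130-2 is directed, stood at 859, 956, 851 and 841 CPM in dividing and 1302, 1253, 1277 and 1134 CPM in other macrophages, lower in each library. Fcgr4, an activating receptor, stood at 374, 576, 349 and 624 CPM against 589.8, 839.6, 486 and 793 CPM. Fcgr3 was at 0.767 to 0.776 times and Fcgr1 at 0.853 to 0.990 times, while Fcer1g, their shared signalling chain, was near level at 0.896 to 0.921 times.

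The synthesis-high macrophages outside the cut allowed the states to be read in cells with high replication genes that the 3 rule genes had not selected. They had been selected by their replication genes, and their depth (median 23951, 28542, 27771 and 34878 UMIs) was also above that of the remaining 11358 macrophages (16009, 19773, 19169 and 22825). Against these remaining cells, their Spp1 list was at 0.408 to 0.584 times and their interferon-stimulated list at 0.551 to 0.660 times. In dividing macrophages the same 2 lists were at 0.460 to 0.537 times and 0.489 to 0.577 times. Their Nos2 list was at 0.666 to 0.815 times, against 0.624 to 0.784 times in dividing macrophages.

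The MHC class II list was less low in the synthesis-high cells, at 0.724 to 0.821 times, than in dividing macrophages, at 0.567 to 0.671 times, in each library. The summed C1q and phagocytosis list, which the C1q genes of the macrophage definition dominate, was at 0.972 to 1.06 times in the synthesis-high and 0.922 to 1.03 times in the dividing cells. D-type cyclins, their kinases and Myc were at 1.59 to 1.84 times in the synthesis-high and 1.06 to 1.32 times in the dividing cells.

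**Figure D4:**
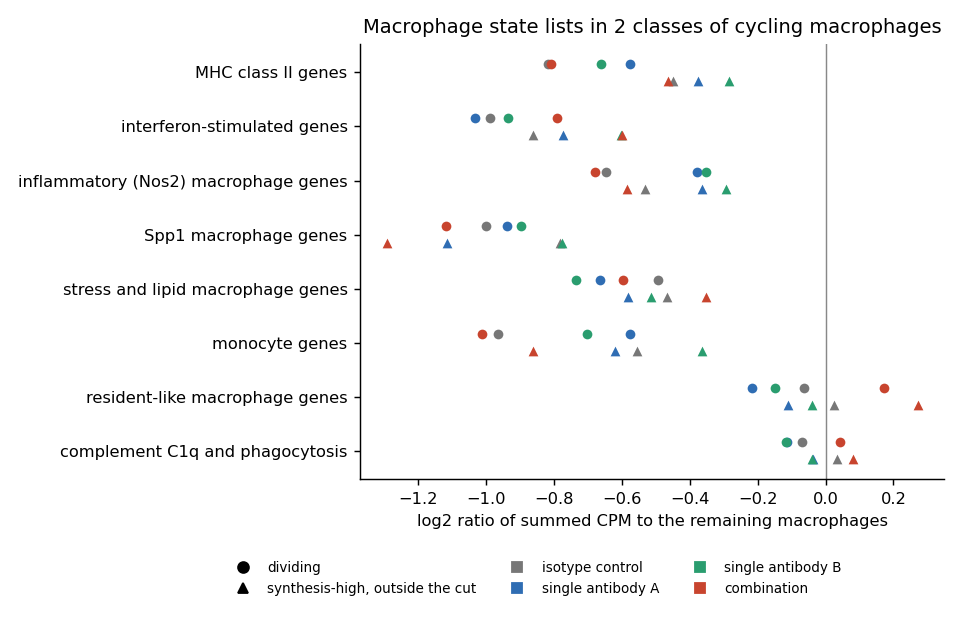
Log2 ratio of the summed CPM of each macrophage state list to the remaining macrophages of the same library (horizontal axis), for dividing macrophages (circles) and synthesis-high macrophages outside the cut (triangles), coloured by library. Both classes lie left of 0 for the first 6 lists in each of the 4 libraries and near 0 for the last 2.

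The third comparison was of dividing macrophages between treatments. Of 7569 genes that reached 20 CPM and 10 UMIs in dividing macrophages of a library, 17 (0.225%) were at least 2-fold above and 10 (0.132%) at least 2-fold below each of the other 3 libraries in the combination. In other macrophages 65 of 7311 (0.889%) were above and 23 (0.315%) below. The classes differ widely in cell number, so the counts are not compared. Of the 17 genes, 5 were mast cell genes, and without the cell described above 12 remained, all among the 17. When each gene's cell with the most UMIs was left out, 7 of the 17 were still called. With the top 5% as dividing 6 of them were called, and with the top 20% 9. When single antibody A was left out of the comparison the counts were 56 and 18.

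Nos2 and Inhba were the called genes of the Nos2 list. Nos2 held 2343 UMIs in the combination, of which 9.52% lay in 1 cell, and 1131 with single antibody A, of which 37.0% did. Its level in the combination was 9.27-fold (95% interval 8.24 to 10.5) that of the isotype control in dividing macrophages and 8.87-fold in other macrophages. Inhba, a subunit of activin, stood at 2.19, 1.94, 1.13 and 27.3 CPM, 12.5-fold (95% interval 8.27 to 19.7) in the combination against the isotype control, but 136 of its 249 UMIs in the combination lay in 1 cell. Summed, the Nos2 list was 2.56-fold higher in the combination than in the isotype control in dividing and 2.62-fold in other macrophages. Cxcl10 was 3.56-fold (95% interval 3.41 to 3.72) and Cxcl9 3.27-fold (95% interval 3.18 to 3.37) in dividing macrophages, and 2.25- and 2.50-fold in other macrophages. Neither was 2-fold above single antibody A in dividing macrophages, where Cxcl9 held 15433 UMIs with single antibody A and 17027 in the combination.

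Outside the lists the 8 largest ratios of combination to isotype control were Tpsb2, Cma1, Mcpt2, Marco, Upp1, Cav1, Acod1 and Slamf8. The first 3 encode mast cell proteases, and 649 of 651, 466 of 467 and 181 of 183 of their UMIs were in the single cell above, so they say nothing of the class. In other macrophages Mcpt2 stood at 67.3, 0.262, 27.5 and 0.441 CPM, highest in the isotype control. Marco, a scavenger receptor, stood at 1.57, 5.15, 6.29 and 26.1 CPM, with a UMI in 10 cells of the combination. With the top 5% as dividing, the combination held no Marco UMI. Acod1, which makes itaconate, stood at 99.7, 132, 109 and 341 CPM, with a UMI in 187 cells. Slamf8, a surface receptor of activated macrophages, stood at 63.0, 103, 49.3 and 211 CPM, with a UMI in 228 cells. A UMI can also come from free RNA, so these are not counts of cells that express the genes.

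The ratios of Acod1 and Slamf8 to the isotype control were 3.42-fold (95% interval 3.20 to 3.67) and 3.35-fold (95% interval 3.08 to 3.66) in dividing macrophages and 4.28 and 3.22 in other macrophages. Upp1, uridine phosphorylase, was 3.98-fold (95% interval 3.20 to 4.99) and Cav1, the coat protein of caveolae, 3.62-fold (95% interval 2.94 to 4.46).

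The 8 smallest ratios were Hes1, Slco2b1, Pxdc1, Lyl1, Gpr34, Hspa1b, Abhd15 and Hspa1a. Hes1, a Notch target that represses transcription, stood at 28.1, 21.4, 26.1 and 5.27 CPM in dividing and 26.9, 18.7, 24.2 and 8.22 CPM in other macrophages, and its combination to isotype control ratio was 0.188-fold (95% interval 0.136 to 0.255). Slco2b1, an organic anion transporter, stood at 44.5, 25.5, 39.2 and 9.88 CPM, and Gpr34, a receptor of microglia and resident macrophages, at 59.6, 58.7, 62.2 and 21.9 CPM. Lyl1, a transcription factor of blood progenitors, stood at 105, 75.8, 104 and 37.6 CPM. The combination was alone at the low end for each of these genes, in other macrophages as well.

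The heat shock protein genes Hspa1a and Hspa1b stood at 248, 361, 329.7 and 110.0 CPM and 276, 388, 378 and 105 CPM in dividing macrophages and were 0.444- and 0.380-fold against the isotype control, and 0.164- and 0.166-fold in other macrophages. They are near-identical copies, and the split between them is uncertain. Pxdc1 was 0.277-fold and Abhd15 0.438-fold. Of the lists, Fcrls was called below the other libraries at 0.346-fold (95% interval 0.334 to 0.358) of the isotype control, and F13a1, the coagulation factor XIII subunit of monocytes and resident macrophages, at 0.480-fold (95% interval 0.440 to 0.522).

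At the level of lists, the combination to isotype control ratio was close in the 2 classes, which were not tested against each other. It was 1.21 in dividing and 1.29 in other macrophages for the Spp1 list, and 1.27 and 1.26 for MHC class II. It was 0.631 and 0.549 for the resident-like list and 0.654 and 0.666 for the monocyte list. The interferon-stimulated list stood at 1.36 and 1.21, the stress and lipid list at 0.863 and 0.937 and the C1q and phagocytosis list at 1.05 and 0.977. The cell cycle lists lay near 1 in dividing macrophages, at 0.891 for licensing, 0.929 for DNA synthesis, 0.976 for mitosis and 0.914 for chromatin. Members of every library passed the same cut on cell cycle genes, so similar levels of these lists were in part set by the choice of cells. None of their genes was called in either direction, beside 0.225% above and 0.132% below of all tested genes, and nothing is read from this. The median ratio over all tested genes was 0.968 in dividing and 0.928 in other macrophages.

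Single genes went apart more than the lists did. Rsad2 was 0.715-fold in dividing and 1.34-fold in other macrophages, with 39.4% of its dividing UMIs in the combination in 1 cell. Fabp5 was 1.10-fold in dividing and 2.42-fold in other macrophages, Ccl5 2.31- and 4.74-fold, and Mmp13 4.25- and 1.95-fold. Of their dividing UMIs in the combination, 8.06%, 27.8% and 20.6% lay in 1 cell. With 1 library per group these differences between classes were not tested.

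**Figure D5:**
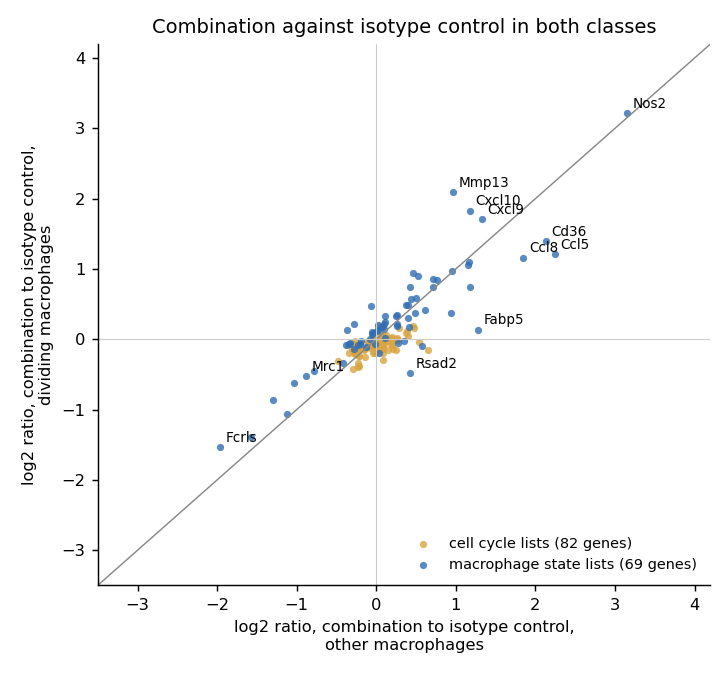
Log2 ratio of combination to isotype control for each tested list gene in other macrophages (horizontal axis) and dividing macrophages (vertical axis); the diagonal marks equal ratios. State genes (blue) include Fcrls at the lower left and Nos2 at the upper right. Rsad2, Fabp5 and Ccl5 lie below the diagonal and Mmp13 above it, and cell cycle genes (yellow) cluster near 0.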

How the data were processed

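Single-cell libraries were made from fixed cells with Chromium Flex probes, and the deposited matrices hold counts, the UMIs per gene and cell that the authors obtained with Cell Ranger and did not normalize. The matrix headers name version 7.2.0 and the submitters' processing notes 7.0.0 with mm10. The study removed doublets and low-quality cells later, so the matrices precede that step and no doublet caller was run here. For 19059 genes, UMIs were summed over the members of each library and divided by their total (CPM). Each group was 1 library, so ratios were described with exact conditional 95% intervals (ratios of shares with log-scale intervals) and no test was made. A gene was called at 2-fold in the same direction in each library, or against each other library. Named genes were those of the lists, with the 10 largest and 10 smallest dividing to other ratios and the 8 largest and 8 smallest combination to isotype control ratios among called genes outside them. Depth was 129151823 to 196362818 UMIs per library. Calls were tested on simulated counts with changes larger than 2-fold and no spread between cells. That test does not cover genes whose UMIs rest on few cells. The members, lists and rules were chosen with earlier results of these data known. Python 3.11.15, numpy 2.4.6, scipy 1.17.1, pandas 2.3.3 and matplotlib 3.10.9 were used. Alternatives covered the cut, depth, doublets, other cell types, scaling and low values. Of the listed symbols, 7 (among them Ccnb1, Hmgb2 and Ly6c2) were not matched and are not analysed here. Some further genes, among them list members and 1 gene that the rule names, are not reported here, and list values are without them.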

Additional observations from a re-analysis of the deposited data

Results flagged for a closer look

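For 1 list gene the combination lay on opposite sides of all 3 other libraries in dividing and in other macrophages, with counting intervals that excluded 1 against each library. These intervals treat UMIs as independent and leave out the spread between cells and between mice, so they do not establish a difference. The difference between the classes was not tested. C1qa was 1.08-fold in the combination against the isotype control in dividing macrophages, where it stood at 6998, 7386, 7041 and 7530.1 CPM, and 0.963-fold in other macrophages, where it stood at 6701, 7450.2, 7059.5 and 6449 CPM. The genes of C1q were also part of the definition of a macrophage.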

How the results depend on the processing

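With 1 pooled library per group, counting intervals omit the spread between mice, and no comparison between groups carries a replicate check. The dividing to other contrast was made within each library, but the libraries had different treatments and are not replicates. No paired analysis between groups was possible because each group has 1 library. The share ratio of the combination to the isotype control, single antibody A and single antibody B kept its direction and stayed in its main interval when cells with UMIs of other cell types, or the 5% with the most UMIs, were left out, when the mitosis list replaced the rule genes and after thinning. With the top 5% of macrophages as dividing the ratios were 0.525, 0.636 and 0.467. With the top 20% they were 0.930 and 0.896 to the isotype control and single antibody B. With at least 3 rule UMIs in cells of unequal depth they were 1.11, 0.992 and 1.04.

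The 398 genes higher in dividing macrophages numbered 280 to 525 and the 67 cell cycle list genes 58 to 79 over the alternatives run. Lower genes, 28 as reported, numbered 458 with no CPM minimum, 18 at 50 CPM, 48 with the top 5% and 15 with the top 20%. State list genes at least 2-fold lower, 9 as reported, numbered 14 with the top 5% and 5 with the top 20%. Leaving out each library in turn gave 400 to 415 higher and 34 to 41 lower genes, 67 to 68 cell cycle genes and 9 to 11 lower state genes. Ccne2 went to 0.989 times with the top 5%.

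In the combination, 17 genes above the other libraries became 102 with no CPM minimum, 8 at 50 CPM, 29 with the top 20% (9 of them among the 17), 15 with the top 5% (6 among the 17), 11 without the 5% of macrophages with the most UMIs (8 among the 17) and, in a setting chosen after seeing the data, 9 when each gene's cell with the most UMIs was left out, 7 of them among the 17. The 10 genes below became 270, 6 at 50 CPM, 4 with a mean over cells, and 11 with the top 20% and 12 with the top 5%, 7 of the 10 being among them in either. Leaving out the isotype control or either single antibody library gave 18 to 56 above and 10 to 18 below. With the top 5%, Tpsb2, Cma1, Mcpt2 and Marco were at 0 in the combination. Mcpt2 was 0.117-fold with the top 20%, 0.174-fold without the deepest cells, 0.210-fold without its top cell and 0.195-fold without the cell with mast cell UMIs, where Cma1 was 0.633-fold. The settings on a depth window, top cells, mast cell UMIs and left-out libraries were added after seeing the data.

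On scaling, median-of-ratios factors in place of total UMIs moved the median log2 ratio of dividing to other macrophages in the combination from 0.10 to 0.02; totals without the cell cycle lists gave 0.13. Under both, the counts of called genes that were recomputed stayed within 1.5-fold.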

Other observations

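Il12b, a subunit of interleukin 12, stood at 7.52, 0, 1.20 and 0.329 CPM in dividing and 2.48, 1.26, 1.42 and 3.28 CPM in other macrophages, and 72 of its 86 UMIs in the isotype control's dividing macrophages lay in 1 cell. Cdkn2a, an INK4 locus gene under the 20 CPM minimum, was 4.57- to 5.57-fold higher in dividing macrophages. Both are values only, chosen after they were seen.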
